A study of Mus musculus with 8 samples.

Results

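RAB GTPases are small membrane-bound switches of vesicle traffic, and the platform annotation of the array names 55 of them, the genes whose symbol is Rab followed by a number and at most a letter and a further number, of 17097 genes with a probe set of their own. They were read in RNA immunoprecipitation (RIP) samples of mouse striatum, where an antibody collects an RNA-binding protein and the transcripts attached to it. The samples were a precipitate with antibody to CPEB4, a precipitate with antibody to CPEB1, a control precipitate with rabbit IgG, and the input lysate from which all came, each from an HD pool and from a WT pool. HD and WT are the genotype labels of male mice 7 to 8 months old whose striata were pooled by genotype. The design text speaks of 4 mice, without saying whether that is per genotype. The labels give no strain, allele or transgene and do not spell out HD. All lysates were crosslinked with formaldehyde, precleared on bare beads before the input was taken, and amplified over 27 cycles. Each fraction of each pool was hybridised to 1 Affymetrix array, so there were 8 arrays and no replicate within a group. Every value below is a log2 probe set value as the authors deposited it, and every difference is a difference of log2 values, in which 1 is a 2-fold change.

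A RAB protein is inserted into a membrane by its prenyl tail and cycles between a GDP-bound and a GTP-bound form. Guanine nucleotide exchange factors (GEFs) load it with GTP, GTPase-activating proteins (GAPs), most of them with a TBC domain, switch it off, and effectors such as tethers and motor adaptors read the GTP form. Each organelle carries its own RABs, and in neurons they sort synaptic vesicles, receptor recycling in dendrites, axonal transport of endosomes and delivery of membrane to growing processes. CPEB1 and CPEB4 are cytoplasmic polyadenylation element binding proteins, which bind U-rich elements in the 3′ untranslated regions of mRNAs and set poly(A) tail length and translation.

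The arrays themselves differed in the spread of their values. On the CPEB4 arrays 1553 (HD) and 1810 (WT) of the 11345 genes tested stood above 8, against 866 (HD) and 1607 (WT) with CPEB1, 648 (HD) and 924 (WT) with IgG and 1160 (HD) and 770 (WT) in input. The medians of all probe sets lay between 4.03 and 4.28. The labelled tissue was checked against genes of its medium spiny neurons. On the input arrays Ppp1r1b stood at 10.30 (HD) and 11.07 (WT) and Pde10a at 11.34 (HD) and 12.20 (WT). The markers Drd1 (4.47 in HD and 4.53 in WT) and Tac1 (3.92 in HD and 3.22 in WT) were near or below the median of all probe sets. Of 6 pan-neuronal markers, 6 in the HD pool and 5 in the WT pool were higher with CPEB4 than with IgG, with a median of their differences of 1.21 in HD (from 0.05 to 2.77) and 1.45 in WT (from -0.85 to 3.65). Over 6 astrocyte markers the median was 0.54 (HD) and 0.37 (WT), and over 6 oligodendrocyte markers 1.34 (HD) and -0.13 (WT). Over 8 medium spiny neuron markers it was 0.49 (HD) and 0.10 (WT), and over 2 cortical excitatory neuron markers 0.14 (HD) and 1.72 (WT). Microglia, endothelial and mural, choroid plexus and blood markers had medians below 0 in both pools. Their part in the RAB results was not tested. In pools of whole tissue, fewer cells of a type and less RNA per cell cannot be told apart.

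Where a gene had several probe sets, the 1 with the highest mean over the 8 arrays stood for it; 29 RAB genes had a single probe set and 26 had several. Of the 55 members, 38 had a mean above 4.23, which is where the middle probe set of the array lay, and were tested together with every other gene above that mark. The other 17 lay near the array background and were not tested. The filter and the choice of probe set used all 8 arrays, those with CPEB4 included. A member high mainly with CPEB4 could thus pass through those arrays, and its difference from IgG is then not independent of the filter. Each member was given 1 station, in lists made with earlier results of these data known. Synaptic vesicles and regulated secretion held 7 members, exocytic traffic to the plasma membrane and cilium 7, and early and recycling endosomes 15. Late endosomes, lysosomes and related organelles held 11, and the endoplasmic reticulum and Golgi 13. Rab40b and Rab40c carry a SOCS box that docks a ubiquitin ligase. Some members, such as Rab12 and Rab34, could be placed at another station, and counts by station depend on these placements. Rab3d, Rab6b, Rab14 and Rab42 are not analysed here.

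**Figure D1:**
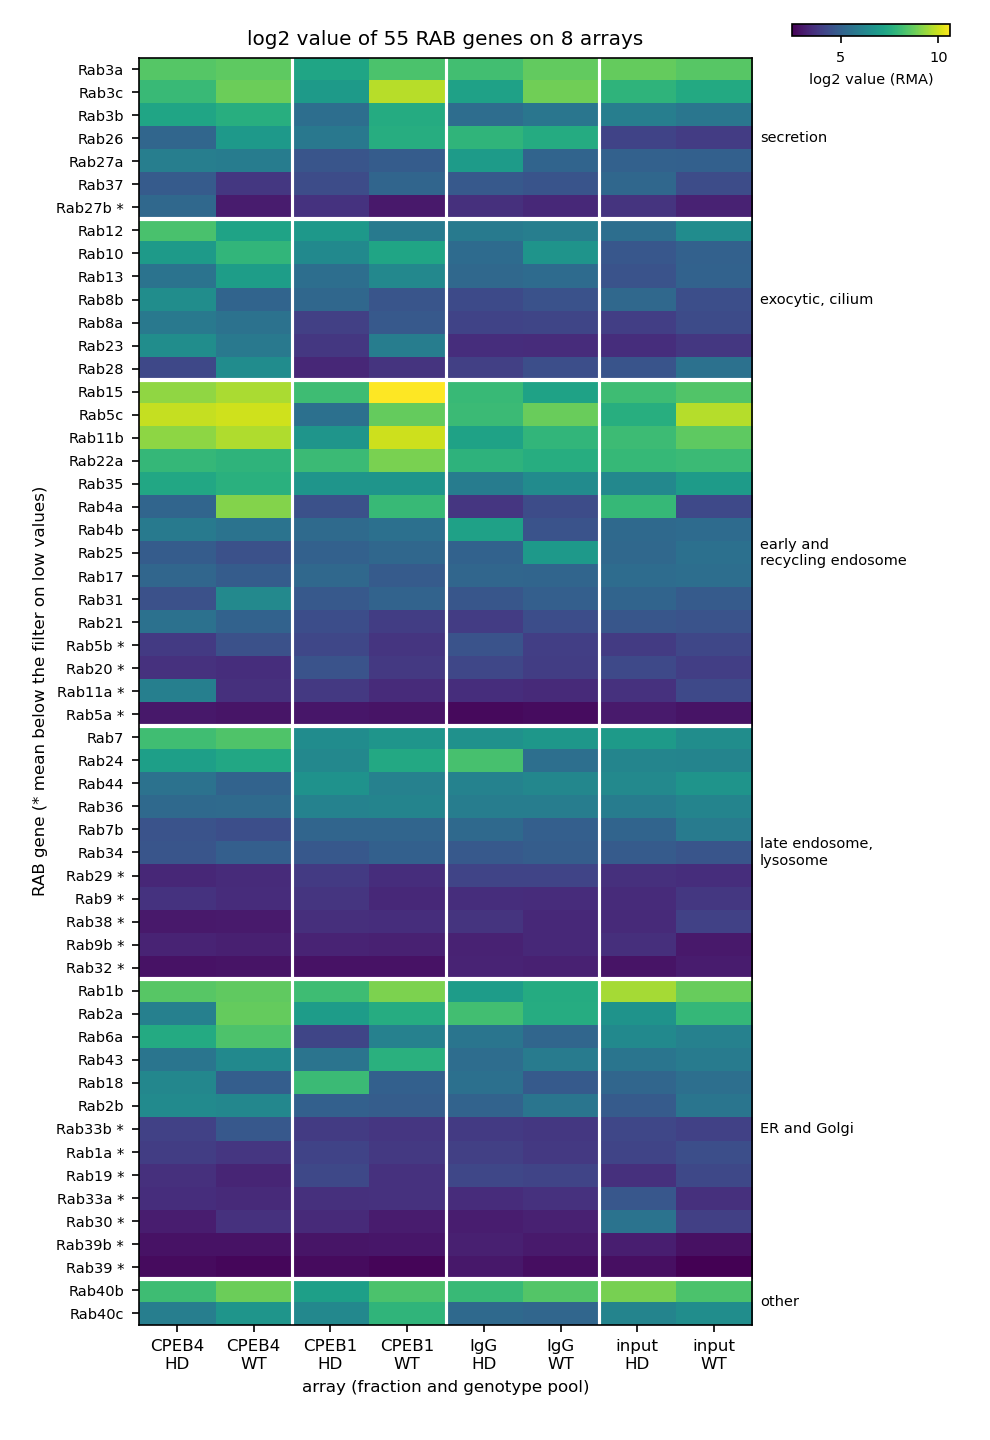
Log2 value of the 55 RAB genes (rows, grouped by station, with an asterisk for the 17 whose mean lay below the filter on low values) on the 8 arrays (columns, fraction and genotype pool), as colour. Colours are to be read along a row, since probe sets differ in brightness; Rab4a is bright on the CPEB4 WT, CPEB1 WT and HD input arrays, and Rab26 is dim on both input arrays.

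The 17 low members included well-known RABs of the endosome. Rab5a, the classical RAB of early endosome fusion, ran between 2.70 and 3.09 over the 8 arrays, and Rab5b between 3.76 and 4.57, so that of the Rab5 genes Rab5c alone passed the filter. Rab39b, whose loss in humans causes X-linked intellectual disability with parkinsonism, ran between 2.85 and 3.19, and Rab29, which recruits the kinase LRRK2 to Golgi and lysosomes, between 3.38 and 4.17. Rab11a, of the recycling endosome, stood at 6.01 (HD) and 3.63 (WT) with CPEB4, 3.85 (HD) and 3.49 (WT) with CPEB1, 3.57 (HD) and 3.45 (WT) with IgG, and 3.64 (HD) and 4.27 (WT) in input. Its value on the HD array with CPEB4 was thus the one high value, 2.44 above IgG in that pool, while its second probe set stayed between 2.74 and 3.05 on all arrays. Rab27b, a secretory granule RAB, likewise stood at 5.24 on the HD array with CPEB4 and between 3.04 and 3.71 on the other 7. Rab30, a Golgi RAB, stood at 5.60 (HD) and 4.02 (WT) in input and at 3.65 or less in every precipitate, and Rab33a, another Golgi RAB, at 4.69 on the HD input array and at 3.66 or less elsewhere. The remaining 9 low members (Rab1a, Rab9, Rab9b, Rab19, Rab20, Rab32, Rab33b, Rab38 and Rab39) each kept within 1.02 or less over the 8 arrays.

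The first comparison set the CPEB4 precipitate against IgG, the question being which RAB transcripts the antibody collected beyond what sticks to beads and antibody. Rab6a of the Golgi, Rab23, Rab12 and Rab8a of exocytic traffic and cilium, Rab3b of synaptic vesicles, Rab35 of recycling endosomes and Rab7 of late endosomes stood 1.35 to 2.58 above IgG, with both CPEB4 arrays above both IgG arrays. Rab3a and Rab3c of synaptic vesicles overlapped with IgG, and Rab26, Rab25, Rab44, Rab36 and Rab7b lay below it. None of these differences passed the test across all genes. By limma with Benjamini-Hochberg adjustment over all genes tested, 0 of the 38 RAB genes passed, against 2.37% of all 11345 genes, 264 of them higher and 5 lower. At an unadjusted p under 0.05, 14 RAB genes were higher with CPEB4, where 15.7% of all genes were, and 1 was lower, where 7.2% were. In 19 of the 38 both CPEB4 arrays stood above both IgG arrays, which held for 29.3% of all genes, and in 5 both stood below both, which held for 37%. Rab23 is among the 14 and among the 19. The median difference was 0.78 over the 38 RAB genes and -0.06 over all genes tested. By pool the RAB median was 0.52 in HD and 1.07 in WT, against -0.12 in HD and -0.06 in WT for all genes. Over all 55 members, the low ones included, it was 0.25, beside -0.16 over all 17097 genes. After quantile normalization it was 0.37 over the 38 RAB genes and -0.24 over all genes tested, and among the brighter genes left by a filter at the 75th percentile 0.96 over RAB genes and 0.34 over all. The smallest adjusted p among the RAB genes was 0.0699, for Rab7. The error given with a difference is the standard error (SE) of the limma model, and n is the 2 pools, HD and WT, which stand in for replicates throughout.

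**Figure D2:**
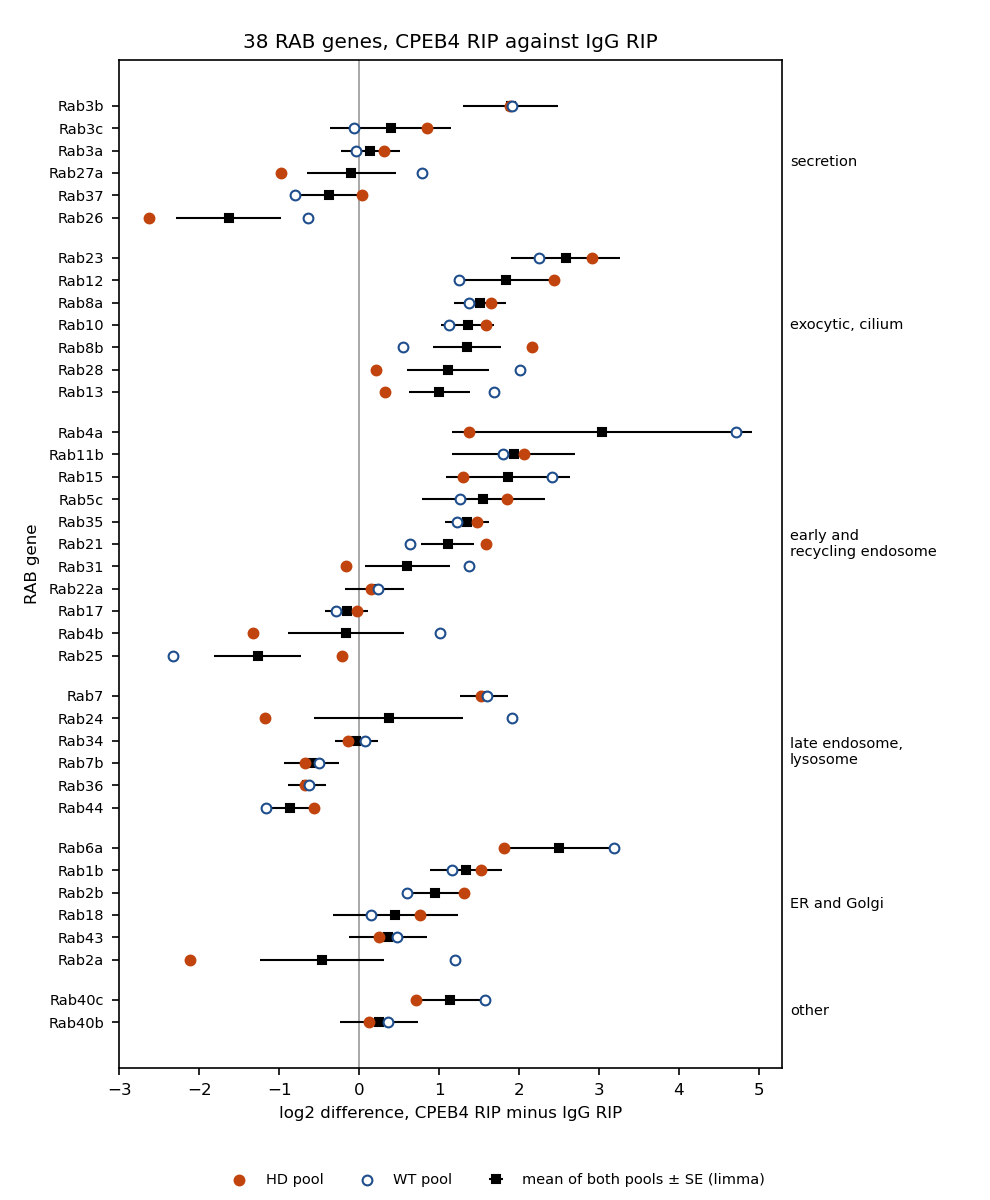
Difference between CPEB4 RIP and IgG RIP (x axis, log2) for the 38 tested RAB genes (y axis, grouped by station), with filled points for the HD pool, open points for the WT pool, and squares with bars for the mean of both pools ± SE of the limma model. All 7 genes of exocytic traffic and cilium lie right of 0 in both pools, while Rab44, Rab36 and Rab7b of the late endosome and lysosome group lie left of 0 in both; the widest gaps between pools are those of Rab4a and Rab2a.

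Among the RABs of exocytic traffic to the plasma membrane and cilium, all 7 members were tested and none passed after adjustment, but all 7 had a positive difference from IgG in both pools and 6 had an unadjusted p under 0.05. Of all genes tested, 33.8% were above 0 in both pools and 42% below 0 in both. At an unadjusted p under 0.05, 15.7% of them were higher and 7.2% lower. The median difference of the 7 was 1.36. Rab34, which acts in cilium formation but was placed with lysosomes, had -0.03. Rab23, a brake on Hedgehog signalling at the cilium, stood at 6.49 (HD) and 5.79 (WT) with CPEB4, 3.81 (HD) and 5.93 (WT) with CPEB1, 3.57 (HD) and 3.54 (WT) with IgG, and 3.56 (HD) and 3.81 (WT) in input. Both CPEB4 arrays and the WT array with CPEB1 were high, and the other 5 lay below 4. Its mean of 4.56 passed the filter of 4.23 only through the CPEB4 arrays, so its place among the tested members rests on them. The difference from IgG was 2.58 ± 0.68, adjusted p = 0.126 (6.0-fold). Rab12, a substrate of LRRK2 that acts in transferrin receptor degradation, stood at 8.28 (HD) and 7.20 (WT) with CPEB4, 6.82 (HD) and 5.81 (WT) with CPEB1, 5.85 (HD) and 5.96 (WT) with IgG, and 5.43 (HD) and 6.43 (WT) in input. Its 2 CPEB4 arrays were the highest of the 8, with more in HD than in WT (1.84 ± 0.58, adjusted p = 0.165).

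Rab10, which delivers membrane to axons and GLUT4 vesicles to the cell surface and is another substrate of LRRK2, stood at 6.91 (HD) and 7.84 (WT) with CPEB4, 6.36 (HD) and 7.27 (WT) with CPEB1, 5.32 (HD) and 6.71 (WT) with IgG, and 4.71 (HD) and 5.01 (WT) in input. The CPEB4 arrays lay above the IgG arrays of both pools (1.36 ± 0.33, adjusted p = 0.112), and all 6 precipitate arrays lay above both input arrays. Rab8a, which carries cargo from the trans-Golgi network and recycling endosome into cilia and dendrites, stood at 5.78 (HD) and 5.55 (WT) with CPEB4, 4.02 (HD) and 4.77 (WT) with CPEB1, 4.13 (HD) and 4.18 (WT) with IgG, and 4.01 (HD) and 4.34 (WT) in input. Here both CPEB4 arrays exceeded the other 6, by 1.65 (HD) and 1.37 (WT) over IgG (mean 1.51 ± 0.32, adjusted p = 0.0881). Its 2 other probe sets, both below the filter, went the other way. They had -0.79 (HD) and -0.39 (WT), and -0.52 (HD) and -0.02 (WT). Rab28, a ciliary RAB of photoreceptors, stood at 4.25 (HD) and 6.44 (WT) with CPEB4, 3.39 (HD) and 3.71 (WT) with CPEB1, 4.04 (HD) and 4.43 (WT) with IgG, and 4.61 (HD) and 5.53 (WT) in input. Its WT array with CPEB4 was the highest and its HD one was not, so that the CPEB4 and IgG arrays overlapped (1.11 ± 0.52, adjusted p = 0.264). The paralog Rab8b (1.36) and Rab13, of tight junctions and membrane recycling (1.01), had both CPEB4 arrays above both IgG arrays. The other Rab8b probe set, below the filter, had 0.06 (HD) and -0.80 (WT).

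Synaptic vesicle and secretory RABs showed no common direction. Of 6 tested, 0 passed the adjusted test, and the median difference from IgG was 0.02. At an unadjusted p under 0.05, 1 was higher (15.7% of all genes) and 0 lower (7.2%). In 4 the pools had opposite signs, as in 2746 of the 11345 genes tested. Rab3a, the main RAB of synaptic vesicles and of regulated transmitter release, stood at 8.47 (HD) and 8.62 (WT) with CPEB4, 7.26 (HD) and 8.32 (WT) with CPEB1, 8.15 (HD) and 8.66 (WT) with IgG, and 8.71 (HD) and 8.50 (WT) in input. Apart from a low HD array with CPEB1, its values spanned 0.56, and CPEB4 and IgG overlapped (0.14 ± 0.37, adjusted p = 0.815). Its paralog Rab3b stood at 7.27 (HD) and 7.58 (WT) with CPEB4, 5.43 (HD) and 7.51 (WT) with CPEB1, 5.39 (HD) and 5.67 (WT) with IgG, and 5.96 (HD) and 5.68 (WT) in input. Both CPEB4 arrays and the WT array with CPEB1 were high and the other 5 were below 6 (CPEB4 over IgG 1.90 ± 0.59, adjusted p = 0.163). Rab3c, another Rab3 of synaptic vesicles, stood at 8.01 (HD) and 8.80 (WT) with CPEB4, 6.93 (HD) and 9.74 (WT) with CPEB1, 7.16 (HD) and 8.86 (WT) with IgG, and 7.79 (HD) and 7.43 (WT) in input. The WT array exceeded the HD array in each of the 3 precipitates, and CPEB4 and IgG overlapped (0.40 ± 0.75, adjusted p = 0.741).

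Rab26, found on secretory and synaptic vesicles, stood at 5.19 (HD) and 6.86 (WT) with CPEB4, 5.75 (HD) and 7.55 (WT) with CPEB1, 7.82 (HD) and 7.49 (WT) with IgG, and 4.12 (HD) and 3.93 (WT) in input. Both CPEB4 arrays lay below both IgG arrays (-1.63 ± 0.66, adjusted p = 0.224), and both input arrays lay below all 6 precipitate arrays. Rab27a, which docks lysosome-related and secretory organelles at the plasma membrane, stood at 5.97 (HD) and 5.91 (WT) with CPEB4, 4.65 (HD) and 4.86 (WT) with CPEB1, 6.95 (HD) and 5.12 (WT) with IgG, and 5.03 (HD) and 4.98 (WT) in input. Its HD array with IgG was the highest, and the difference had opposite signs in the pools, -0.98 in the HD pool and 0.79 in the WT pool (mean -0.10 ± 0.55, adjusted p = 0.921). Rab37, a secretory granule RAB, differed from IgG by -0.38, with opposite signs in the pools.

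Of the RABs of early and recycling endosomes 11 of 15 were tested. None passed after adjustment. At an unadjusted p under 0.05, 2 were higher, where 15.7% of all genes were. Differences from IgG were positive in both pools for 7 and negative in both for 2, where 33.8% and 42% of all genes were. The median over these members was 1.11. Rab5c, the form of Rab5 that passed the filter and a RAB of early endosome fusion, stood at 9.89 (HD) and 10.03 (WT) with CPEB4, 5.50 (HD) and 8.70 (WT) with CPEB1, 8.04 (HD) and 8.77 (WT) with IgG, and 7.60 (HD) and 9.72 (WT) in input. The CPEB4 arrays were the highest in both pools and the HD array with CPEB1 was the lowest (1.56 ± 0.77, adjusted p = 0.281 for CPEB4 over IgG). Rab11b, of the recycling endosome, stood at 9.24 (HD) and 9.64 (WT) with CPEB4, 6.72 (HD) and 10.0 (WT) with CPEB1, 7.18 (HD) and 7.84 (WT) with IgG, and 8.05 (HD) and 8.61 (WT) in input. Both CPEB4 arrays lay above both IgG and both input arrays (1.93 ± 0.77, adjusted p = 0.22), and the WT array with CPEB1 was higher still. Rab15, a RAB of neuronal endocytosis and receptor recycling, stood at 9.26 (HD) and 9.58 (WT) with CPEB4, 8.10 (HD) and 10.62 (WT) with CPEB1, 7.96 (HD) and 7.17 (WT) with IgG, and 8.09 (HD) and 8.41 (WT) in input. It had the CPEB4 arrays above the IgG arrays as well (1.86 ± 0.78, adjusted p = 0.232).

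Rab4a, of the fast recycling route, stood at 5.15 (HD) and 9.10 (WT) with CPEB4, 4.52 (HD) and 7.97 (WT) with CPEB1, 3.78 (HD) and 4.39 (WT) with IgG, and 7.95 (HD) and 4.28 (WT) in input. The WT arrays with CPEB4 and CPEB1 and the HD input array were high and the other 5 low, a range of 5.32 over the 8 arrays, the widest of any member. Its difference of CPEB4 from IgG, the largest of the 38 (8.23-fold), was 1.37 in the HD pool and 4.71 in the WT pool (mean 3.04 ± 1.88, adjusted p = 0.349). Rab35, which returns synaptic vesicle proteins and receptors from endosomes, stood at 7.37 (HD) and 7.65 (WT) with CPEB4, 6.73 (HD) and 6.74 (WT) with CPEB1, 5.90 (HD) and 6.42 (WT) with IgG, and 6.28 (HD) and 6.94 (WT) in input. Its CPEB4 arrays were the 2 highest, and its difference of 1.35 ± 0.28, adjusted p = 0.0812 came from 1.48 in the HD pool and 1.23 in the WT pool. Rab21, of integrin endocytosis (1.11), and Rab22a, of early endosomes (0.19), also had both CPEB4 arrays above both IgG arrays. Rab31, between trans-Golgi network and endosomes, stood at 6.32 on the WT array with CPEB4 and between 4.51 and 5.10 on the other 7 (0.61 ± 0.53, adjusted p = 0.481).

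Other RABs of this station went the other way or split. Rab4b, the paralog of Rab4a, stood at 5.80 (HD) and 5.59 (WT) with CPEB4, 5.30 (HD) and 5.51 (WT) with CPEB1, 7.14 (HD) and 4.58 (WT) with IgG, and 5.28 (HD) and 5.32 (WT) in input. The HD array with IgG was its highest value and the difference from IgG was -1.33 in the HD pool and 1.01 in the WT pool (mean -0.16 ± 0.73, adjusted p = 0.896). Rab25, a Rab11 relative of epithelia, stood at 4.84 (HD) and 4.52 (WT) with CPEB4, 5.03 (HD) and 5.20 (WT) with CPEB1, 5.06 (HD) and 6.85 (WT) with IgG, and 5.25 (HD) and 5.50 (WT) in input. Its high value was that of the WT array with IgG (-1.27 ± 0.54, adjusted p = 0.238). Rab17, also best known from epithelia, kept between 4.81 and 5.44.

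In the late endosome and lysosome group, 6 of 11 were tested and 0 passed, with a median of -0.31. At an unadjusted p under 0.05, 1 member was higher (15.7% of all genes) and 1 lower (7.2%). Rab7, which drives fusion of late endosomes with lysosomes and the axonal transport of neurotrophin receptors, stood at 8.14 (HD) and 8.38 (WT) with CPEB4, 6.45 (HD) and 6.72 (WT) with CPEB1, 6.61 (HD) and 6.78 (WT) with IgG, and 6.93 (HD) and 6.48 (WT) in input. Both CPEB4 arrays lay above all of the other 6, and the difference from IgG, 1.53 in the HD pool and 1.60 in the WT pool, was nearly the same in the pools (mean 1.56 ± 0.30, adjusted p = 0.0699, 2.95-fold). Rab24, linked to autophagy, stood at 7.07 (HD) and 7.38 (WT) with CPEB4, 6.29 (HD) and 7.40 (WT) with CPEB1, 8.25 (HD) and 5.47 (WT) with IgG, and 6.20 (HD) and 6.17 (WT) in input. The HD array with IgG was high and the WT one low, which gave -1.17 in the HD pool and 1.91 in the WT pool (mean 0.37 ± 0.93, adjusted p = 0.805). Rab44, a large RAB of mast cell granules (-0.86 ± 0.34, adjusted p = 0.22), Rab36 (-0.65 ± 0.24, adjusted p = 0.202) and Rab7b, of endosome to Golgi return (-0.59 ± 0.34, adjusted p = 0.327), had both CPEB4 arrays below both IgG arrays; Rab36 was the 1 member lower at an unadjusted p under 0.05. Rab34, which positions lysosomes and acts in cilium formation, kept within 0.37 over the 8 arrays.

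Of the endoplasmic reticulum and Golgi group 6 of 13 were tested. None passed after adjustment, and the median difference from IgG was 0.70. At an unadjusted p under 0.05, 3 were higher, where 15.7% of all genes were. Differences were positive in both pools for 5, where 33.8% of all genes were. Rab6a, of retrograde traffic at the Golgi and of exocytic carriers, stood at 7.48 (HD) and 8.36 (WT) with CPEB4, 4.18 (HD) and 6.08 (WT) with CPEB1, 5.66 (HD) and 5.17 (WT) with IgG, and 6.36 (HD) and 6.05 (WT) in input. The CPEB4 arrays were the highest and the HD array with CPEB1 the lowest (2.50 ± 0.64, adjusted p = 0.12 for CPEB4 over IgG, 5.67-fold). Rab1b, of transport from endoplasmic reticulum to Golgi, stood at 8.51 (HD) and 8.64 (WT) with CPEB4, 8.10 (HD) and 9.03 (WT) with CPEB1, 6.99 (HD) and 7.48 (WT) with IgG, and 9.53 (HD) and 8.74 (WT) in input. The IgG arrays were its lowest, and both CPEB4 arrays lay above them (1.34 ± 0.45, adjusted p = 0.18) but below both input arrays. Rab2b, a Golgi RAB, stood at 6.38 (HD) and 6.25 (WT) with CPEB4, 4.99 (HD) and 4.89 (WT) with CPEB1, 5.07 (HD) and 5.66 (WT) with IgG, and 4.81 (HD) and 5.64 (WT) in input. Its CPEB4 arrays were the 2 highest (0.96 ± 0.35, adjusted p = 0.20).

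Rab2a, which links the Golgi with late endosomes and with presynaptic cargo, stood at 6.03 (HD) and 8.72 (WT) with CPEB4, 7.0 (HD) and 7.53 (WT) with CPEB1, 8.15 (HD) and 7.52 (WT) with IgG, and 6.65 (HD) and 7.90 (WT) in input. The WT array with CPEB4 was the highest of the 8 and the HD one the lowest, so that the differences from IgG had opposite signs, -2.12 in the HD pool and 1.20 in the WT pool (mean -0.46 ± 0.78, adjusted p = 0.707). Rab18, of the endoplasmic reticulum and lipid droplets, stood at 6.25 (HD) and 4.94 (WT) with CPEB4, 8.05 (HD) and 5.0 (WT) with CPEB1, 5.50 (HD) and 4.79 (WT) with IgG, and 5.16 (HD) and 5.45 (WT) in input. The HD array with CPEB1 was its one high value, and CPEB4 and IgG overlapped (0.45 ± 0.78, adjusted p = 0.713). Rab43, a Golgi RAB, differed from IgG by 0.36. Rab40c, of the SOCS-box RABs, stood at 5.97 (HD) and 6.74 (WT) with CPEB4, 6.29 (HD) and 7.82 (WT) with CPEB1, 5.26 (HD) and 5.16 (WT) with IgG, and 6.17 (HD) and 6.47 (WT) in input. Its IgG arrays were the lowest, and both CPEB4 arrays lay above them (1.14 ± 0.44, adjusted p = 0.212), while Rab40b differed from IgG by 0.25 with overlapping arrays.

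Other probe sets of the same genes gave a second reading of the comparison, in a fit added after the data were seen that tested all 16152 single-symbol probe sets above the filter, 66 of them of RAB genes. The second probe set of Rab4a, of a type that Affymetrix marks as matching several transcripts, stood at 7.34 (HD) and 7.85 (WT) with CPEB4, 4.64 (HD) and 5.73 (WT) with CPEB1, 4.49 (HD) and 4.76 (WT) with IgG, and 4.56 (HD) and 4.47 (WT) in input. Both CPEB4 arrays were the highest, HD and WT alike, in contrast to the probe set with the higher mean, and this probe set passed (2.97 ± 0.36, adjusted p = 0.032 by limma; 534 of 16152 passed). A second Rab6a probe set, of a type marked as sharing probes with other genes, stood at 6.61 (HD) and 8.17 (WT) with CPEB4, 3.21 (HD) and 4.17 (WT) with CPEB1, 4.37 (HD) and 5.58 (WT) with IgG, and 3.10 (HD) and 3.07 (WT) in input. Again the CPEB4 arrays were the highest, and it missed the threshold over IgG (2.42 ± 0.44, adjusted p = 0.0551). Its mean of 4.79 passed the filter of 4.23 only through the CPEB4 arrays, so this probe set gives no separate support.

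The second Rab7 probe set stood at 8.37 (HD) and 9.25 (WT) with CPEB4, 4.42 (HD) and 6.23 (WT) with CPEB1, 5.74 (HD) and 5.87 (WT) with IgG, and 7.16 (HD) and 5.12 (WT) in input. Its CPEB4 arrays were the highest too (3.01 ± 0.91, adjusted p = 0.148). Rab24 read differently: its second probe set stood at 7.15 (HD) and 7.58 (WT) with CPEB4, 3.95 (HD) and 8.15 (WT) with CPEB1, 3.20 (HD) and 3.17 (WT) with IgG, and 4.23 (HD) and 3.55 (WT) in input. There both CPEB4 arrays and the WT array with CPEB1 were high and both IgG arrays were near background, a difference of 4.18 ± 1.20, adjusted p = 0.137, whereas the probe set with the higher mean had opposite signs in the pools. The 5 other Rab2a probe sets had 1.61 (HD) and 1.78 (WT), 0.33 (HD) and 0.04 (WT), 3.29 (HD) and 0.81 (WT), 2.09 (HD) and 0.88 (WT), and 0.77 (HD) and 0.26 (WT). All 5 were positive in both pools, where the probe set standing for the gene was negative in HD, and none of them passed. The other 2 Rab10 probe sets were higher with CPEB4 in both pools as well, by 1.17 (HD) and 3.06 (WT) and 0.78 (HD) and 3.19 (WT). The latter probe set passed the filter, at a mean of 4.26, only through its WT array with CPEB4.

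Of the 28 other probe sets above the filter, 15 were above 0 for CPEB4 over IgG in both pools, 6 below 0 in both, and 7 had opposite signs. Of all genes tested, read by 1 probe set each, 33.8% were above 0 in both pools and 42% below. No share was taken over the other probe sets of all genes. Of the 2 others of Rab11b, one had 1.11 (HD) and 1.02 (WT) and one -0.12 (HD) and -1.18 (WT). The other Rab23 probe set above the filter had 0.15 (HD) and -0.12 (WT), far from the 2.92 (HD) and 2.25 (WT) of the one that stood for the gene. For Rab3c the 3 others above the filter had -0.03 (HD) and 1.25 (WT), -0.30 (HD) and 2.03 (WT), and 0.12 (HD) and 0.47 (WT). For Rab27a the other one above the filter had -0.48 (HD) and 0.46 (WT), and the second Rab18 probe set, without the high HD value with CPEB1, had 1.55 (HD) and 0.68 (WT). The second Rab40c probe set had -0.21 (HD) and -1.01 (WT), opposite in sign to the first. Of 3 others of Rab22a, one had 0.87 (HD) and 0.97 (WT) and the rest -0.20 (HD) and -0.52 (WT) and -0.19 (HD) and -0.65 (WT). Those of Rab36 had -0.39 (HD) and 0.01 (WT) and -0.51 (HD) and 2.47 (WT), that of Rab37 -0.70 (HD) and -0.13 (WT), that of Rab43 -0.57 (HD) and -0.52 (WT) and that of Rab7b -0.24 (HD) and 0.18 (WT).

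**Figure D3:**
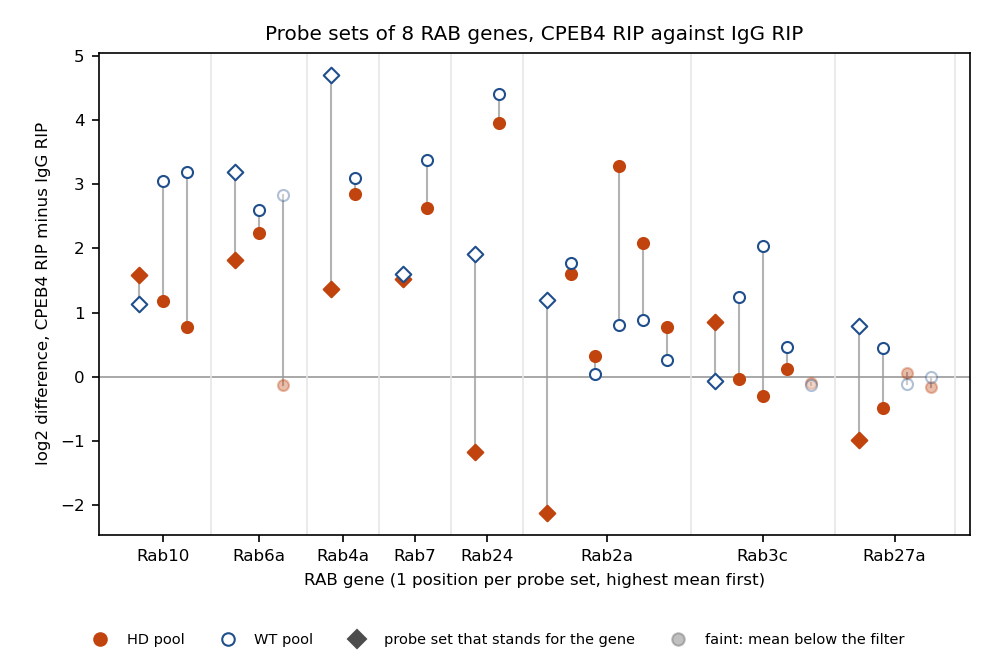
Difference between CPEB4 RIP and IgG RIP (y axis, log2) for each probe set of 8 RAB genes (x axis, 1 position per probe set), with filled symbols for the HD pool, open symbols for the WT pool, diamonds for the probe set that stands for the gene, and faint symbols for probe sets whose mean lay below the filter. All probe sets of Rab10, Rab4a and Rab7 lie above 0 in both pools, while those of Rab24 and Rab2a disagree in the HD pool.

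Close paralogs varied in how alike their differences from IgG were. Rab3b (1.90) had a larger difference than Rab3a (0.14) by 1.76 and Rab3c (0.40) by 1.5, Rab4a (3.04) exceeded Rab4b (-0.16) by 3.20, and Rab7 (1.56) exceeded Rab7b (-0.59) by 2.16. Rab8a (1.51) and Rab8b (1.36) differed by 0.15. Rab3a and Rab3c differed by -0.26 and Rab22a and Rab31 by -0.41. These gaps between paralogs are differences of fold, taken on single probe sets, and were not tested.

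The next comparison asked which RAB transcripts were collected with CPEB1 beyond IgG; it shares the IgG arrays with the first. By limma with Benjamini-Hochberg adjustment 0 of 38 RAB genes passed, as did 0% of all genes. The lowest adjusted p of any gene was 0.121. At an unadjusted p under 0.05, 2 RAB genes were higher and 0 lower, where 6.37% and 0.996% of all genes were. In 10 RAB genes both CPEB1 arrays stood above both IgG arrays (24.6% of all genes) and in 3 both stood below (12.5% of all genes). The RAB median was 0.14, beside 0.09 for all genes tested, or by pool 0.01 in HD and 0.21 in WT.

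The 2 RAB genes with an unadjusted p under 0.05 were Rab40c (1.84 ± 0.44, adjusted p = 0.356) and Rab1b (1.33 ± 0.45, adjusted p = 0.584). Both had IgG arrays below all 6 others, so the same arrays set their differences here and with CPEB4. Several of the largest differences rested on the WT pool: Rab4a had 0.74 in the HD pool and 3.58 in the WT pool (2.16 ± 1.88, adjusted p = 0.874), Rab15 0.14 in the HD pool and 3.46 in the WT pool (1.80 ± 0.78, adjusted p = 0.719) and Rab23 0.25 in the HD pool and 2.40 in the WT pool (1.32 ± 0.68, adjusted p = 0.788). Rab18 was the reverse, with 2.55 in the HD pool and 0.21 in the WT pool (1.38 ± 0.78, adjusted p = 0.809). Other probe sets above the filter had smaller differences or none. Rab4a had 0.15 (HD) and 0.97 (WT) by its other one, and Rab23 -0.005 (HD) and -0.35 (WT). Rab18 had 0.64 (HD) and 0.07 (WT), and Rab40c 0.24 (HD) and 2.20 (WT). The members with both CPEB1 arrays below both IgG arrays were Rab2b (-0.42), Rab27a (-1.28) and Rab28 (-0.69). Rab7, the member nearest to passing with CPEB4, had -0.11 ± 0.30, adjusted p = 0.982 with CPEB1, and Rab5c had -2.54 in the HD pool and -0.07 in the WT pool (-1.31 ± 0.77, adjusted p = 0.826).

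Rab5c, Rab6a, Rab7 and Rab2b lay lower with CPEB1 than with CPEB4 in both pools, by -1.37 to -2.86 on average, and Rab44 and Rab36 lay higher, none of them past the test. The precipitates were compared with each other, as CPEB1 over CPEB4, a difference that uses no IgG array but shares its arrays with the comparisons above. By limma with Benjamini-Hochberg adjustment 0 of 38 RAB genes passed, against 0.141% of all genes, all 16 of them lower with CPEB1. At an unadjusted p under 0.05, 8 RAB genes had less signal with CPEB1 (9.41% of all genes) and 2 were higher (5.92% of all genes). In 12 RAB genes both CPEB1 arrays stood below both CPEB4 arrays (18.6% of all genes), and in 5 both stood above (37% of all genes). The median was -0.46 over the 38 RAB genes and 0.21 over all genes tested. It was -0.64 in the HD pool and -0.08 in the WT pool.

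The 8 lower RAB genes came from 4 stations. Rab5c had the largest gap, -4.39 in the HD pool and -1.33 in the WT pool (-2.86 ± 0.77, adjusted p = 0.23), and Rab6a the next, -3.30 in the HD pool and -2.28 in the WT pool (-2.79 ± 0.64, adjusted p = 0.169). Rab7 had -1.68 in the HD pool and -1.66 in the WT pool (-1.67 ± 0.30, adjusted p = 0.11), the lowest adjusted p of the 38, while its CPEB1 arrays differed from the IgG arrays by -0.15 in the HD pool and -0.06 in the WT pool. Rab28 (-1.80 ± 0.52, adjusted p = 0.247), Rab2b (-1.37 ± 0.35, adjusted p = 0.204), Rab8a (-1.27 ± 0.32, adjusted p = 0.205), Rab21 (-1.09 ± 0.33, adjusted p = 0.26) and Rab35 (-0.78 ± 0.28, adjusted p = 0.305) completed the 8. Rab12 (-1.43 ± 0.58, adjusted p = 0.329) had both CPEB1 arrays below both CPEB4 arrays without reaching an unadjusted p of 0.05. The 2 higher ones, Rab44 (1.02 ± 0.34, adjusted p = 0.284) and Rab36 (0.84 ± 0.24, adjusted p = 0.247), are members in which both CPEB4 arrays lay below the other 6. In the all-probe-set fit the second Rab6a probe set passed, at -3.70 ± 0.44, adjusted p = 0.0459 (145 of 16152 passed). It entered that fit only through its CPEB4 arrays, so the call is not independent of the filter.

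**Figure D4:**
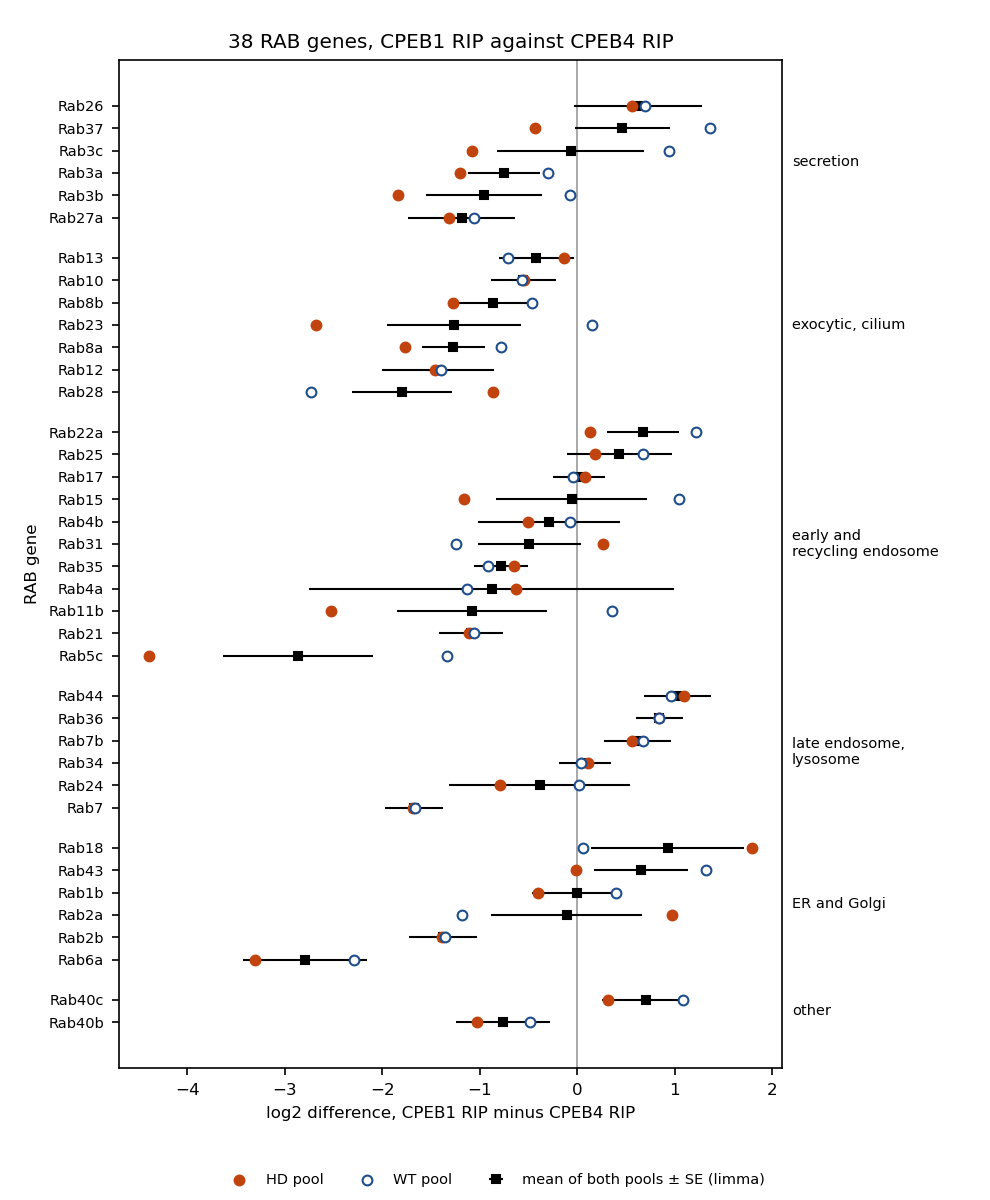
Difference between CPEB1 RIP and CPEB4 RIP (x axis, log2) for the 38 tested RAB genes (y axis, grouped by station), with filled points for the HD pool, open points for the WT pool, and squares with bars for the mean of both pools ± SE of the limma model. Rab5c, Rab6a, Rab28 and Rab7 lie farthest left of 0, and the pools coincide for Rab7, Rab2b and Rab12 and part for Rab11b, Rab23 and Rab5c.

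Against input, the comparison shows which RAB transcripts were more or less abundant in a precipitate than in the lysate. Rab10 passed with CPEB4: the CPEB4 arrays at 6.91 (HD) and 7.84 (WT) stood above input at 4.71 (HD) and 5.01 (WT), 5.7-fold higher (2.51 ± 0.33, adjusted p = 0.0447, limma with Benjamini-Hochberg adjustment, n = 2 pools). It was the 1 RAB gene of 38 to pass, where 1.36% of all genes did. Rab10 was also above input with CPEB1 (1.96 ± 0.33, adjusted p = 0.184) and with IgG (1.15 ± 0.33, adjusted p = 0.436), neither past the test. Its call was lost under 13 of 17 alternatives, among them the loss of any 1 array, with adjusted p from 0.0342 to 0.248. Its other probe sets stood above input in HD by 0.22 and 0.74 and in WT by 2.89 and 3.45. The probe set with 0.74 and 3.45 passed the filter only through its WT array with CPEB4.

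Of the 38 RAB genes, 11 were higher with CPEB4 than in input at an unadjusted p under 0.05 (13.2% of all genes) and 3 were lower (12.9%). Both CPEB4 arrays stood above both input arrays in 19 (25.7% of all genes) and below in 7 (39.1%), and the median was 0.73, beside -0.15 for all genes. After Rab10 the largest were Rab23 (2.45 ± 0.68, adjusted p = 0.126), Rab26 (2.0 ± 0.66, adjusted p = 0.153) and Rab12 (1.81 ± 0.58, adjusted p = 0.149). Rab23, which is among the 11 and the 19, passed the filter only through its CPEB4 arrays. Rab7 stood 1.56 ± 0.30, adjusted p = 0.0741 above input, close to its distance from IgG. The 3 lower at an unadjusted p under 0.05 were Rab44 (-1.19), Rab7b (-0.97) and Rab36 (-0.75). In the all-probe-set fit 3 RAB genes passed, where 416 of 16152 probe sets did. They were Rab10, Rab4a by its second probe set (3.08 ± 0.36, adjusted p = 0.0327) and Rab6a by its second (4.31 ± 0.44, adjusted p = 0.029). That Rab6a probe set entered the fit only through its CPEB4 arrays.

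With CPEB1, 0 of 38 RAB genes passed against input (0.0176% of all genes). At an unadjusted p under 0.05, 3 were higher (5.42% of all genes) and 1 was lower (2.65%), and the median was 0.08, beside -0.01. The 3 were Rab26 (2.62 ± 0.66, adjusted p = 0.353), Rab10 and Rab13 (1.06 ± 0.39, adjusted p = 0.569), and the 1 was Rab28 (-1.52 ± 0.52, adjusted p = 0.537); Rab5c had -1.56 ± 0.77, adjusted p = 0.725. The control precipitate set its own pattern. With IgG over input 0 of 38 passed (0.0264% of all genes), 2 were higher (3.15%) and 1 lower (6.6%) at an unadjusted p under 0.05. The median was -0.16, beside -0.11. Rab26 was the most affected, 3.70 in the HD pool and 3.56 in the WT pool above input with IgG (3.63 ± 0.66, adjusted p = 0.252, 12.4-fold), a larger distance than with CPEB4 or CPEB1. Rab1b stood below input with IgG (-1.90 ± 0.45, adjusted p = 0.352), and Rab4a had -4.17 in the HD pool and 0.11 in the WT pool (-2.03 ± 1.88, adjusted p = 0.746). Comparisons with input share the input arrays.

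The machinery that acts on RABs held transcripts that passed in the same fit, in which no RAB gene did over IgG. Of 29 tested GAPs 3 rose with CPEB4 over IgG and 0 fell, with a list median of 0.25. Of 32 tested GEFs 1 rose and 0 fell (median 0.11), and of 31 tested effectors 1 rose and 0 fell (median 0.78). Of 6 genes of prenylation and membrane cycling (median 0.47) and the 2 kinases Lrrk1 and Lrrk2, 0 passed. All genes tested had a median of -0.06, and 2.37% of them passed.

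Rin2, a GEF for Rab5 that binds Ras, stood at 7.10 (HD) and 7.49 (WT) with CPEB4, 4.65 (HD) and 4.63 (WT) with CPEB1, 4.28 (HD) and 3.96 (WT) with IgG, and 4.12 (HD) and 4.25 (WT) in input. Both CPEB4 arrays were high and the other 6 near background, and it rose with CPEB4 over IgG by 3.18 ± 0.28, adjusted p = 0.0267 (limma, Benjamini-Hochberg) and over input by 3.11 ± 0.28, adjusted p = 0.0353. Appl1, an endosomal effector of Rab5 in receptor signalling, stood at 8.53 (HD) and 8.57 (WT) with CPEB4, 5.85 (HD) and 7.01 (WT) with CPEB1, 5.56 (HD) and 5.48 (WT) with IgG, and 5.45 (HD) and 5.49 (WT) in input. The CPEB4 arrays were the highest again, and it rose over IgG (3.03 ± 0.39, adjusted p = 0.0369) and over input (3.08 ± 0.39, adjusted p = 0.0416). Tbc1d2b, a TBC-domain protein of endosomes, stood at 7.85 (HD) and 8.19 (WT) with CPEB4, 5.22 (HD) and 6.04 (WT) with CPEB1, 5.42 (HD) and 5.19 (WT) with IgG, and 4.98 (HD) and 5.01 (WT) in input. It too was high on both CPEB4 arrays and rose over IgG (2.71 ± 0.33, adjusted p = 0.0367) and input (3.02 ± 0.33, adjusted p = 0.0402).

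Tbc1d16, a GAP that acts on Rab4a, stood at 9.85 (HD) and 9.76 (WT) with CPEB4, 9.93 (HD) and 10.68 (WT) with CPEB1, 6.34 (HD) and 7.52 (WT) with IgG, and 6.72 (HD) and 6.40 (WT) in input. All 4 arrays of the CPEB precipitates were high and the IgG and input arrays low. It rose with CPEB4 over IgG (2.88 ± 0.44, adjusted p = 0.0465) and input (3.24 ± 0.44, adjusted p = 0.0473), and with CPEB1 it stood 3.38 ± 0.44, adjusted p = 0.131 above IgG, which did not pass. Tbc1d22b, a TBC-domain protein, stood at 8.84 (HD) and 9.05 (WT) with CPEB4, 8.45 (HD) and 7.96 (WT) with CPEB1, 6.06 (HD) and 6.39 (WT) with IgG, and 7.30 (HD) and 8.02 (WT) in input. Its IgG arrays were the lowest of all. It rose over IgG (2.71 ± 0.36, adjusted p = 0.0376) and did not pass over input (1.28 ± 0.36, adjusted p = 0.125). These calls did not hold in every alternative. Over IgG, that of Tbc1d16 was lost in 16 of 17 and those of the other 4 in 8 to 10. Over input, Tbc1d16 lost its call in 14 of 17, Appl1 in 12 of 17, Tbc1d2b in 11 of 17 and Rin2 in 10 of 16. None of the 5 passed over IgG when the fit held just the 4 arrays compared, or after quantile normalization.

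Other large differences from IgG did not pass. Tbc1d9b, a TBC-domain protein, had 3.38 ± 0.77, adjusted p = 0.0976, with input arrays as high as the CPEB4 ones, and Rab11fip3, an effector that links Rab11 to motors, had 3.08 ± 0.65, adjusted p = 0.0836. Gapvd1, an endosomal GEF of Rab5 and Rab31, had 2.22 ± 0.39, adjusted p = 0.0597. Trappc10, a subunit of the TRAPPII complex that activates Golgi RABs, had 0.79 in the HD pool and 4.62 in the WT pool (2.70 ± 0.97, adjusted p = 0.195), and the Golgi tether Uso1, an effector of Rab1, had 0.41 in the HD pool and 3.66 in the WT pool (2.04 ± 0.85, adjusted p = 0.232). Trappc10 and Uso1 passed the filter of 4.23 only through their CPEB4 arrays, so their differences from IgG are not independent of the filter. Among genes that prenylate RABs and lift them from membranes, Rabggtb, the catalytic subunit of RAB geranylgeranyl transferase, had 1.90 ± 0.45, adjusted p = 0.103, its partner Rabggta -0.68 ± 0.49, adjusted p = 0.411, and the GDP dissociation inhibitor Gdi2 0.72 ± 0.90, adjusted p = 0.609. Lrrk2, which phosphorylates Rab8a, Rab10 and Rab12, had 0.60 ± 0.76, adjusted p = 0.618, and its relative Lrrk1 -0.56 ± 0.49, adjusted p = 0.484.

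Differences between the HD and WT pools rest on 1 array each and have no test; members were counted at 2-fold. In the input lysate 1 of 38 RAB genes was 2-fold higher in HD (11.3% of all genes) and 3 were 2-fold lower (4.43%), with a median of -0.16, beside -0.08 for all genes. The 1 was Rab4a, at 7.95 in HD against 4.28 in WT, but its second probe set stood at 4.56 in HD against 4.47 in WT. The 3 were Rab5c (7.60 in HD against 9.72 in WT), Rab2a (6.65 in HD against 7.90 in WT) and Rab12 (5.43 in HD against 6.43 in WT). For Rab2a the sign depended on the probe set: the 5 others were higher in HD input, by 0.90 to 4.89, against -1.24 for the one standing for the gene. Rab3a, Rab3b and Rab3c of synaptic vesicles differed by 0.21, 0.28 and 0.36 in input, Rab7 by 0.45, Rab8a by -0.33 and Rab11b by -0.55. The second Rab7 probe set had a larger gap in input, at 7.16 in HD against 5.12 in WT. The other Rab3c probe sets above the filter differed by 0.14, -1.06 and 0.41.

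Marker genes were also compared between the input arrays, gene by gene over those above the filter. Of 6 astrocyte markers 3 were higher and 3 lower in HD, from -1.16 to 2.48 with a median difference of -0.03. The median difference was 0.24 over 6 oligodendrocyte markers, -0.36 over 6 endothelial and mural markers and -0.72 over 8 medium spiny neuron markers, of which 6 were lower in HD. Their part in the RAB differences was not tested.

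In the CPEB1 precipitate RAB genes were mostly lower in the HD pool: 14 of 38 were 2-fold lower (17.9% of all genes) and 2 were 2-fold higher (3.34%), with a median of -0.76, beside 0.00 for all genes. Over all 55 members, the low ones included, the median was -0.17, and after quantile normalization that of the 38 was -0.28. The largest were Rab4a (4.52 in HD against 7.97 in WT), Rab11b (6.72 in HD against 10.0 in WT) and Rab5c (5.50 in HD against 8.70 in WT). Rab3c (6.93 in HD against 9.74 in WT), Rab15 (8.10 in HD against 10.62 in WT), Rab23, Rab3b, Rab43, Rab6a, Rab26, Rab40c, Rab40b, Rab24 and Rab3a made up the 14. Other probe sets mostly had smaller gaps: of 11 above the filter, from 8 of these genes, 7 were lower in HD and 3 of them 2-fold lower. Rab11b's 2 others had 0.07 and -0.13, against -3.28, and that of Rab4a -1.09, against -3.45. Those of Rab3c had -0.50, 0.01 and -0.88, that of Rab23 0.40 and that of Rab43 0.31, while Rab24 (-4.21), Rab40c (-2.64) and Rab6a (-0.96) stayed lower. The 2 higher ones were Rab18 (8.05 in HD against 5.0 in WT) and Rab12 (6.82 in HD against 5.81 in WT). The second Rab18 probe set had 0.29, against 3.05. The HD array with CPEB1 had 866 genes above 8, against 1607 on the WT array. Of the 8 medium spiny neuron markers 6 were lower in HD with CPEB1, with a median difference of -1.48. It was -2.61 with IgG and -1.19 with CPEB4. Of 6 astrocyte markers 6 were lower in HD with CPEB1 (median -1.31), and of 6 pan-neuronal markers 5 (median -0.83). The median with CPEB1 was -0.19 over 7 microglia markers, -0.02 over 6 oligodendrocyte markers and 0.34 over 6 endothelial and mural markers. It was 0.46 over 3 choroid plexus markers, -0.43 over 2 cortical excitatory neuron markers and -0.47 over 2 blood markers. Their part in the RAB differences was not tested.

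In the CPEB4 precipitate 4 RAB genes were 2-fold higher in HD (4.55% of all genes) and 6 were 2-fold lower (11.6%), with a median of -0.20, beside 0.06. Rab4a (5.15 in HD against 9.10 in WT), Rab2a (6.03 in HD against 8.72 in WT), Rab28 (4.25 in HD against 6.44 in WT) and Rab31 (4.51 in HD against 6.32 in WT) had the largest gaps, followed by Rab26 and Rab13. The 4 higher were Rab8b (6.47 in HD against 5.10 in WT), Rab18, Rab12 and Rab37. For Rab4a the second probe set had 7.34 in HD against 7.85 in WT, a far smaller gap. In the IgG precipitate 3 were 2-fold higher in HD (5.32% of all genes) and 3 were 2-fold lower (10%), with a median of -0.14, beside 0.05. These were Rab24 (8.25 in HD against 5.47 in WT), Rab4b (7.14 in HD against 4.58 in WT) and Rab27a (6.95 in HD against 5.12 in WT) on the higher side and Rab25 (5.06 in HD against 6.85 in WT), Rab3c (7.16 in HD against 8.86 in WT) and Rab10 (5.32 in HD against 6.71 in WT) on the lower. Other probe sets above the filter had far smaller gaps with IgG. Rab24 had 0.03, Rab27a 0.29, Rab3c 0.10, -0.11 and -0.09, and Rab10 -0.11 and -0.45. Rab4b and Rab25 had a single probe set. Rab2a had 0.63 with IgG by the probe set standing for it and -0.28, -1.92, -4.28, -3.32 and -3.14 by its others.

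**Figure D5:**
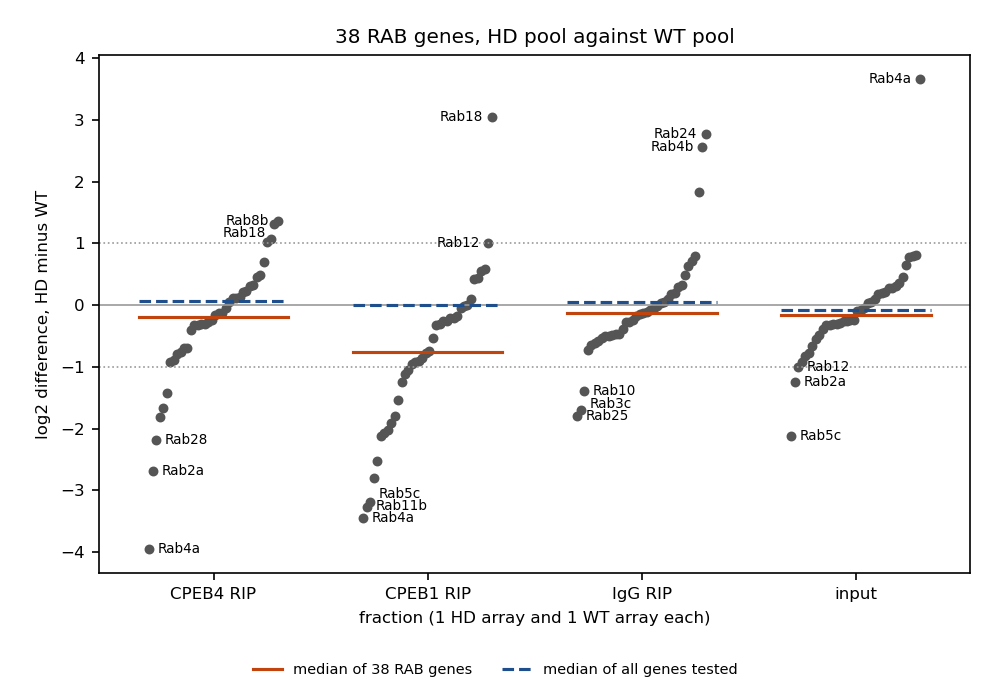
Difference between the HD and the WT array (y axis, log2) of the 38 tested RAB genes in each fraction (x axis), 1 point per gene in rising order, with the median of the RAB genes as a solid line, that of all genes tested as a dashed line, and dotted lines at 2-fold. The RAB median lies at -0.76 with CPEB1 and within 0.20 of 0 in the other 3 fractions; Rab4a is the lowest point with CPEB4 and CPEB1 and the highest in input.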

How the data were processed

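RNA from 8 RIP and input samples of mouse striatum was amplified and hybridised to Affymetrix mouse expression arrays. The deposited log2 values are RMA probe set summaries, per the submitters' processing notes; no source used here tells whether the arrays were normalized together. RMA scales arrays against each other, so fractions of unlike RNA yield are compared on a relative scale. Of 45101 probe sets, 28898 carried 1 gene symbol in the platform annotation, and of these 28689 matched a current gene by Entrez ID. For each gene the probe set with the highest mean was used.

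Differences were fitted with limma 3.58.1 (R 4.3.3; lmFit and eBayes, fraction plus genotype pool, 8 arrays, 3 residual degrees of freedom) over 11345 genes, with Benjamini-Hochberg adjustment and a threshold of 0.05; the procedure was tested on simulated data. HD and WT pools served as the 2 samples of a fraction. Each is 1 pool of animals, so p-values do not measure the spread between animals. With pool as a term, they rest on how unevenly the pools differed over all 4 fractions, moderated over genes by eBayes. A gene's SE is thus the same in every comparison, and arrays outside a comparison enter its p-values. Precision is limited by the number of arrays. Members, gene lists and the rule for named members were chosen with earlier results of these data known: RAB genes past a test, those with the largest differences per comparison, and a list of synaptic, endosomal and disease-linked members; of regulators, those past the test and the 3 with the largest differences per list. Rab35 and the other members with values outside that rule were added after their values were seen.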

Additional observations from a re-analysis of the deposited data

Results flagged for a closer look

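In 4 cases a RAB gene differed from IgG by 2-fold or more in opposite directions in the HD and WT pools. Each rests on 1 array per fraction and pool, and the difference between the pools was not tested. For CPEB4 over IgG, Rab2a had -2.12 in the HD pool and 1.20 in the WT pool, Rab24 had -1.17 in HD and 1.91 in WT, and Rab4b had -1.33 in HD and 1.01 in WT. For CPEB1 over IgG, Rab24 had -1.96 in HD and 1.93 in WT. For Rab24 and Rab4b the HD array with IgG was the highest of the 8. The second Rab24 probe set was positive in both pools with CPEB4, and also with CPEB1 (0.75 in HD and 4.98 in WT). The probe set standing for Rab24 is of the type marked as matching several transcripts. All 5 other Rab2a probe sets were positive in both pools with CPEB4.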

How the results depend on the processing

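With 1 array per fraction and pool, 8 arrays in all, 0 RAB genes passed with CPEB1 over IgG, CPEB1 over input and IgG over input in the main limma fit and under all alternatives run. The genotype pool was the block of the main fit; without this replicate block 1 RAB gene passed for CPEB4 over IgG (Rab7, adjusted p = 0.0416) and 0 for CPEB4 over input. When all probe sets were tested (chosen after seeing the data), 1 passed for CPEB4 over IgG, 1 for CPEB1 over CPEB4 and 3 for CPEB4 over input. The call of CPEB1 over CPEB4 and 1 of those over input belong to the second Rab6a probe set, which passed the filter only through CPEB4. The 1 call of CPEB4 over input, Rab10, became 0 with the 75th percentile filter, with probe sets averaged per gene, after quantile normalization, with only the compared arrays, and without any 1 array (0 to 0). The cause of these losses was not tested. Over all genes, 269 passed for CPEB4 over IgG, 135 with the 75th percentile filter, 9 after quantile normalization, and 0 with only the compared arrays or without any 1 CPEB4, IgG or input array. For CPEB4 over input 154 passed, with 0 to 305 over the 17 alternatives, and for CPEB1 over CPEB4 16 passed, with 0 to 81; both counts were 0 without any 1 array.

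The median of RAB genes for CPEB4 over IgG was 0.25 with no filter and 0.37 after quantile normalization. For CPEB4 over input it was 0.23 with no filter, 0.94 with the 75th percentile filter, 0.49 with the mean of probe sets, 0.63 after cyclic loess, 0.30 after quantile normalization, 0.91 after median centring, and 0.49 to 0.73 without 1 array. For CPEB1 over IgG it was 0.33 with the 75th percentile filter and -0.00746 to 0.28 without 1 array, turning sign without the WT array with CPEB1. For CPEB1 over CPEB4 it was -0.87 (without the WT array with CPEB1) to -0.14 without 1 array, and for CPEB1 over input -0.15 (without that same array) to 0.17. For IgG over input it was -0.14 with no filter, -0.077 with the mean of probe sets, -0.0477 after loess, -0.0409 after quantile normalization, -0.14 after median centring, and -0.25 to -0.0592 without 1 array. Rab4a, IgG over input, ran from -5.20 (without the WT input array) to 1.14 (without the HD input array).

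Counts of RAB genes apart in HD and WT moved with the fold asked for. In input, 5 were higher and 7 lower in HD at 1.5-fold, 1 was lower at 3-fold, and 3 were higher with the mean of probe sets. With CPEB1, 1 was higher in HD at 3-fold and 1 after median centring. With CPEB4, 12 were lower at 1.5-fold, 0 higher at 3-fold and 1 higher with the mean of probe sets, and the HD minus WT median turned to 0.0341 after quantile normalization. With IgG, 6 were higher and 7 lower at 1.5-fold, and 5 were higher after quantile normalization. The CPEB1 median of HD minus WT kept its sign, between -0.89 and -0.28, under the 4 alternatives run, and was -0.17 over all 55 members.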
